A study of Mus musculus with 18 samples.

Results

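The cytosolic ribosome proteins described here are the genes whose products build the large (Rpl) and small (Rps) subunits of the ribosome that translates nuclear mRNA. They were chosen by name: protein-coding rows called Rpl or Rps followed by a digit, together with Rplp0, Rplp1, Rplp2 and Rpsa, leaving out the S6 kinases (Rps6k), pseudogene names with -ps and names ending in l or rt. The rule took 81 of the 27830 genes in the deposited tables: 48 of the large subunit, 32 of the small subunit, and Rps19bp1, a binding protein of RPS19 that is not itself a ribosomal protein. It also kept Rpl7l1 and Rpl22l1, paralogs of Rpl7 and Rpl22, and Rps23rg1, which held 3 reads in 1 library and was not tested. In each comparison 80 members passed the filter on low values, a floor of 10 normalised reads that 3 or more libraries had to reach.

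The ribosome carries its proteins in fixed numbers, and free ribosomal proteins are unstable, so cells make their mRNAs together and in large amounts. In mammals most of these mRNAs start with a run of pyrimidines, the TOP motif, through which the mTORC1 kinase controls their translation and the binding protein LARP1 affects their stability. In T cells ribosome production rises with activation, when a small resting cell grows and divides. A few members have roles of their own: Rplp0, Rplp1 and Rplp2 form the stalk that recruits elongation factors, Rpl5 and Rpl11 bind the 5S RNA and can block the p53 ligase MDM2, and Rps6 is the phosphorylation target of the S6 kinases.

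The study asked how CD8+ T cells of different subsets change when the mitochondrial chaperone GRP75, encoded by Hspa9, is lost. Poly-A RNA was sequenced from WT cells and from cells labelled cKO, a conditional knockout of Hspa9, in 3 subsets: naive cells taken from lymph nodes and spleen of mice aged 8 weeks, and effector and memory cells differentiated from naive cells in culture. All groups carry the label no treatment, each of the 6 groups has 3 libraries, and the driver of the deletion, the deleted exons and the culture conditions are not given in the sources used here. The labels do not say whether the 3 libraries of a group came from separate mice, so the p-values measure the spread between these libraries only, which may be technical.

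Totals ranged from 14771251 to 18049774 assigned reads per library. Hspa9 went against its label: its mean rose from 3992 ± 176 (SD, n = 3) normalised reads in WT to 6438 ± 284 in the cKO-labelled libraries of naive cells, and was 2093 ± 80 against 2340 ± 151 in effector and 4041 ± 119 against 5637 ± 160 in memory cells. Counts are per gene, so loss of single exons could not be checked, and cKO below means a library labelled cKO. The 2 naive groups also differed in sex-linked RNA: Xist fell from 16393 ± 1514 to 4428 ± 279 normalised reads, and Ddx3y, on the Y chromosome, held 0 reads in every WT library and 2907 ± 143 normalised reads in cKO. Genotype and this difference cannot be told apart in naive cells. The 8 listed CD8 T cell markers summed to between 4053 and 5733 CPM, counts scaled to a common library total, in every library, with none at 0 in any group.

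Because the mRNAs of this family are known for the letters at their 5′ end, the sequences around the annotated starts were read from the RefSeq promoter table, build GRCm38.p6, which held 61 of the members. The genes below were picked from the members that the table holds and whose levels are described further on. They include the stalk gene Rplp0, which rose where others fell, its partner Rplp2, the S6 kinase target Rps6 and the 5S RNA partner Rpl5. The rest, Rpl12, Rps24, Rpl37a and Rpl27, had large falls between conditions, as had other members not shown, such as Rps21 and Rps28. Each line gives 30 bases, 5′ to 3′ on the transcribed strand, 15 before the annotated start and 15 from it on, and capitals mark the longest run of C and T that comes within 5 bases of the start.
Rplp0: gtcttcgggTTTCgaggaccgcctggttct
Rplp2: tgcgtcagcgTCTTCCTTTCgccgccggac
Rpl12: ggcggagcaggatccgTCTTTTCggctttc
Rps24: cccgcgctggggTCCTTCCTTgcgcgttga
Rpl37a: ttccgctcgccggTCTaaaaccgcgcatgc
Rpl27: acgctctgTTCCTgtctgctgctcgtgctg
Rps6: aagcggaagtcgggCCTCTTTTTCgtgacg
Rpl5: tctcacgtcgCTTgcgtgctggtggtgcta
They lie at chr5:115559452-115559481 (Rplp0, plus strand), chr7:141447636-141447665 (Rplp2, plus), chr2:32961697-32961726 (Rpl12, plus), chr14:24490663-24490692 (Rps24, plus), chr1:72711245-72711274 (Rpl37a, plus), chr11:101442230-101442259 (Rpl27, plus), chr4:86857353-86857382 (Rps6, minus) and chr5:107900513-107900542 (Rpl5, plus). Rps24 has another annotated start in the table, with a run of 2 bases.

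A run of at least 6 C and T near the start was found in 31 of the 61 members (50.8%), against 23.0% of 27025 genes in the table. The longest run had a median of 6 bases in members and 4 in all genes. The letters CTTTC, searched on the transcribed strand only and overlapping such runs where they occur, stood in the 30 bases around the start of 17 members (27.9%) and of 4.76% of all genes. The letters CCGGAAG, searched on both strands of the 300 bases from 250 before the start to 50 after it, were found in 24 members (39.3%) and 9.93% of all genes. Rplp2, Rps24 and Rps6 carry runs of 10, 9 and 10 bases, while Rplp0, Rpl37a and Rpl5 carry runs of 4, 3 and 3 at these annotated starts, whose use in T cells was not measured here.

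Levels between genes were compared per length, in TPM, a share of transcripts computed from the recovered reads and the gene lengths in the deposited tables. In WT naive cells the stalk gene Rplp1 stood highest at 12183 ± 1542 TPM (SD, n = 3), followed by Rps3a1, Rps15, Rpl4 and Rps4x. Rplp2, the other acidic stalk protein, stood at 1117 ± 132 TPM and Rplp0 at 2786 ± 171 TPM. The SDs of Rplp0 and Rplp1 leave a wide gap between them, while Rplp2 lay close to Rpl11 at 1182 ± 152 TPM, within the spread of both. The deposited gene length of Rplp2 is 2072 bases, against 421 for its mRNA in the GENCODE M21 annotation. That of Rplp1 is 499 bases in both, so levels and ranks by TPM depend on the length used. In CPM, which uses no length, Rplp1 stood at 1890 ± 258 and Rplp2 at 720 ± 94. Rps10, Rpl24, Rps19bp1, Rpl7l1 and Rpl13a filled the lowest ranks, from 16.6 to 70.3 TPM.

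The lowest ranks include genes whose reads may be split with copies. Rows named as Rps10 pseudogenes held 5164 reads per library on average in the naive table, against 184 on Rps10 itself. For Rpl21 the named pseudogene rows held 129% of the parent's reads, for Rpl17 81.7%, for Rps7 31.9%, for Rps12 30.7% and for Rpl14 28.6%. Values of these members are uncertain for that reason. In all, 17 members contain 28 snoRNA rows, and 23 are overlapped by another row that is no snoRNA; the strand setting of the counting is not given in the sources used here.

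These mRNAs took a much smaller share of the reads in WT effector cells than in WT naive or WT memory cells, at 0.514 of the naive share. The members took 9.19%, 7.85% and 8.56% of all assigned reads in the 3 WT naive libraries, 4.38%, 4.36% and 4.42% in WT effector and 7.93%, 9.29% and 8.13% in WT memory libraries. Every effector library lay below every naive and memory library, and the naive and memory libraries overlapped. The exact two-sided permutation test gave p = 0.1 for effector against naive, the smallest value 3 libraries against 3 allow, and p = 1 for memory against naive.

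**Figure D1:**
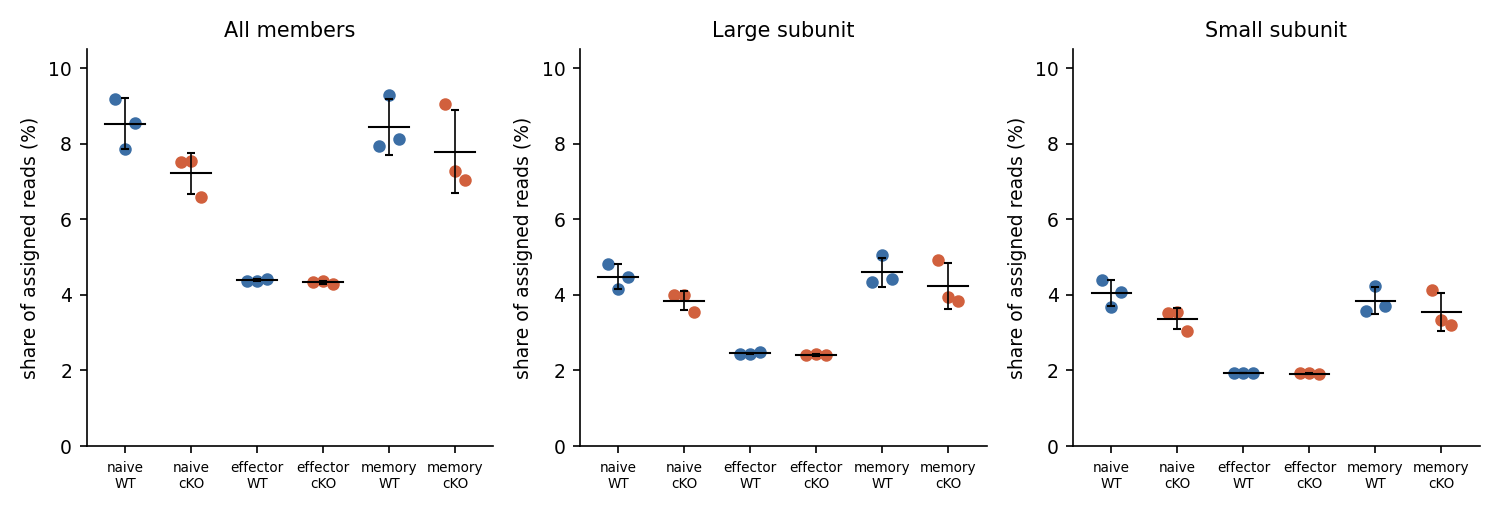
Share of assigned reads (%) from all members and from the large and small subunit, by group; points are libraries, lines are means and bars SD over 3 libraries, blue WT and red cKO. The effector libraries lie between 4.29% and 4.42% for all members, below all naive and memory libraries.

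Gene by gene, 70 of the 80 members tested fell from WT naive to WT effector cells and 2 rose, with limma and Benjamini-Hochberg adjustment over all genes, beside 67% of all genes called in this comparison, 32.8% lower and 34.2% higher. The median over members was -0.91 on the log2 scale, beside 0.00 over all genes tested. These levels are relative to the other RNA of a library, so the amount per cell was not measured and may differ in direction. The naive cells came from tissue and the effector cells from culture, which cannot be told apart from the subset. All 31 small subunit genes fell, with a median of -0.99, and 39 of 48 large subunit genes did, with a median of -0.79. The ratio of large to small subunit reads moved with this, from 1.11 ± 0.02 in naive to 1.27 ± 0.01 in effector and 1.20 ± 0.01 in memory WT libraries (SD, n = 3). The 3 sets of libraries did not overlap in that ratio. The summed level of 4 proliferation markers was 36.2 ± 3.3 CPM in WT naive and 2413 ± 70 CPM in WT effector libraries. Markers of other cells moved as well: the 9 B cell markers went from 459 ± 22 to 229 ± 3 CPM, the myeloid markers from 4.57 ± 0.24 to 108 ± 7, the 3 NK cell markers from 1.15 ± 0.42 to 132 ± 7 and the 4 CD4 T cell markers from 5.38 ± 0.74 to 63.9 ± 0.8. The part of these markers in the difference was not tested. In bulk samples such as these, fewer cells of a type and less RNA per cell cannot be told apart.

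Rpl12, a protein at the base of the stalk, fell most. It stood at 1783, 1622 and 1698 CPM in the WT naive libraries, at 472, 455 and 479 in effector and at 1497, 1667 and 1576 in memory. Its effector libraries lay far below both other subsets, and it fell by 1.77 on the log2 scale (SE 0.08) with an adjusted p of 1.1e-15 in limma. Rps24 fell by 1.44 (SE 0.10) and Rps20 by 1.39 (SE 0.11), both small subunit proteins, and Rplp1 of the stalk fell by 1.39 (SE 0.13). Rps6 fell by 0.93, Rpsa by 0.65, Rpl5 by 1.09, Rpl11 by 0.69 and Rps27a, made as a fusion to ubiquitin, by 0.97. Of the X-linked members, Rpl36a fell by 1.37, Rps4x by 1.08, Rpl10 by 0.82 and Rpl39 by 0.72.

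Rplp0 and Rpl29, a large subunit protein, were the 2 that rose. Rplp0 stood at 1455, 1493 and 1356 CPM in WT naive, 2081, 2228 and 2134 in WT effector, and 3210, 3674 and 3262 in WT memory libraries. The 3 subsets did not overlap, with memory highest. The rise was 0.67 (SE 0.09, adjusted p = 5.3e-07) in effector and 1.29 (SE 0.09, adjusted p = 4e-11) in memory against naive cells. Rplp0 moved from rank 18 among the members by TPM in WT naive cells to rank 2 in effector and 3 in memory cells. Rpl29 stood at 156, 141 and 142 CPM in WT naive, 236, 238 and 256 in WT effector, and 297, 367 and 314 in WT memory libraries. Again no 2 subsets overlapped, with rises of 0.82 (SE 0.13) and 1.20 (SE 0.13) over naive.

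From WT naive to WT memory cells 3 members rose and 2 fell, in a comparison where 35.2% of all genes were called, 14.3% lower and 20.9% higher. Rplp0, Rpl29 and Rpl21 (a rise of 1.02, SE 0.34, where named pseudogene rows held 129% of its reads in naive cells) were higher. Rps10 fell by 0.54 (SE 0.14) and Rpl7l1 by 0.36 (SE 0.08). From WT effector to WT memory cells 75 members rose and none fell, with a median of 0.90 and 61% of all genes called, 29.5% lower and 31.5% higher; without adjustment 76 had a p under 0.05, edgeR called 1 fall and DESeq2 2. Rpl12 rose most, by 1.71, then Rps20 by 1.44 and Rpl36a by 1.41. Rpl7l1, at -0.16 with an adjusted p of 0.07, was one of 5 members that did not pass. Both genes of each paralog pair fell in effector cells against naive: Rpl7 fell by 0.59 and Rpl7l1 by 0.20, while Rpl22 fell by 0.89 and Rpl22l1 by 0.58; the difference within a pair was not tested.

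**Figure D2:**
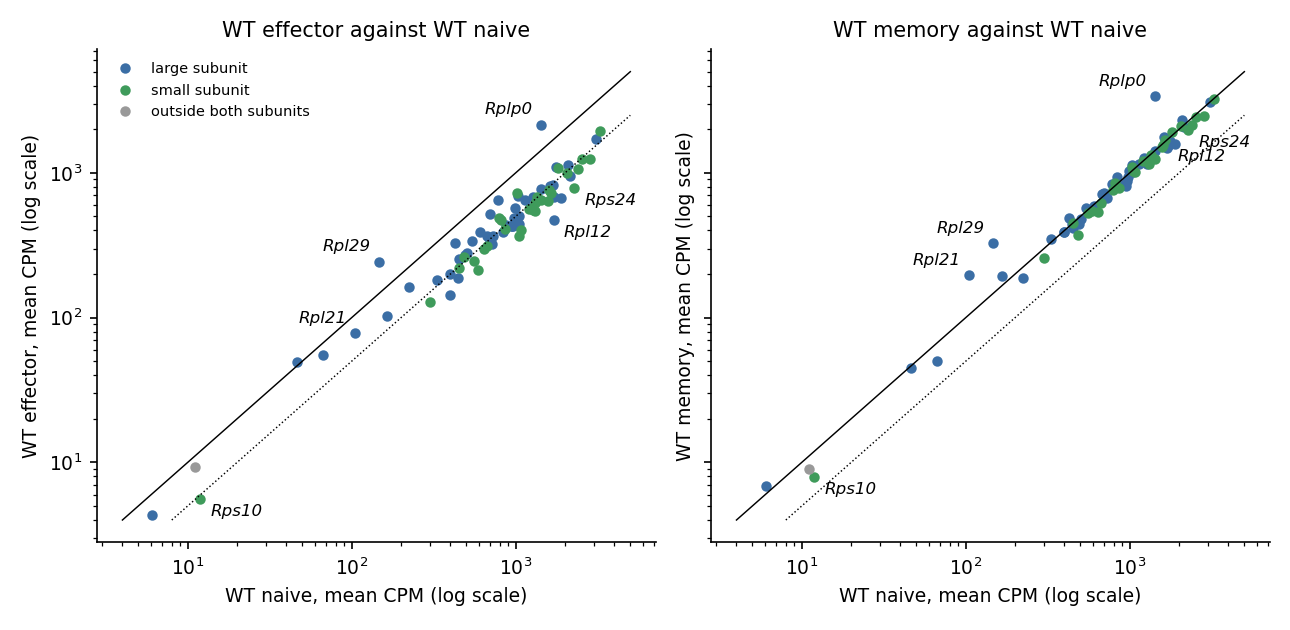
Mean CPM of each member in WT effector (left) and WT memory (right) libraries against WT naive libraries, both axes logarithmic; the solid line marks equal levels and the dotted line a level lower by 1 on the log2 scale. In effector cells most members lie near the dotted line while Rplp0 and Rpl29 lie well above equality, and in memory cells most lie near equality with Rplp0, Rpl29 and Rpl21 well above it.

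In naive cells the mRNAs of the cytosolic ribosome were lower in cKO across both subunits. Of 80 members 58 fell and 2 rose, while 24.9% of all 13885 genes were called, 11.9% lower and 12.9% higher. The median over members was -0.38 against -0.01 over all genes, and 78 of 80 members had a difference below 0. In the large subunit 34 of 48 fell and 2 rose, with a median of -0.37, and in the small subunit 24 of 31 fell and none rose, with a median of -0.38. The members' share of reads was 7.52%, 7.53% and 6.60% in the cKO libraries, below all 3 WT libraries, with a mean of 7.22% ± 0.54 against 8.53% ± 0.67 (exact permutation p = 0.1, the lowest possible). As a share of TPM the members took 14.75% ± 0.95 in cKO and 16.15% ± 1.30 in WT, with overlap (exact permutation p = 0.3). The authors' deposited table called 55 members higher in WT and 2 lower in WT at an adjusted p under 0.05.

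The count rested on scaling and on single libraries more than the direction did. Scaling to library totals left 31 falls and 2 rises with a median of -0.26, and moved the median of all genes by 0.118. Leaving out WT replicate 1 gave 32 falls, leaving out WT replicate 3 gave 34, and leaving out WT replicate 2 gave 67. Scaling to the members' own summed reads, which removes what they share, left 1 fall and 4 rises.

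The stalk split. Rplp0 rose from 24410, 25244 and 22900 normalised reads in WT to 28408, 28171 and 32039 in cKO. All cKO libraries were above all WT libraries, by 0.29 on the log2 scale (SE 0.07, adjusted p = 0.014), a call lost with WT replicate 3 left out or a replicate block (adjusted p up to 0.064). Its partner Rplp1 fell from 35364, 27132 and 33030 to 23544, 23085 and 17412, with no overlap, by 0.58 (SE 0.12, adjusted p = 0.0052). Rplp2 fell from 12811, 10344 and 13229 to 9653, 9260 and 6750, by 0.51 (SE 0.13, adjusted p = 0.014). Per length, Rplp0 moved from rank 18 to rank 6 of the members while Rplp1 stayed first.

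Rpl29 rose most. It stood at 2623, 2386 and 2395 normalised reads in WT and at 3956, 5666 and 3603 in cKO. The groups did not overlap, the cKO replicate 2 stood apart at the top, and the rise was 0.81 (SE 0.13, adjusted p = 0.0011). It was called in all 18 alternative settings tried, between 0.61 and 1.17. The cKO values in CPM, 255, 365 and 232, lay in or above the WT effector range of 236 to 256 given above, apart from replicate 3 just below it; no test was made across those groups.

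The largest falls came from both subunits. Rpl37a, a zinc-binding protein of the large subunit, stood at 14520, 9219 and 12887 normalised reads in WT and 7488, 7851 and 4920 in cKO. No cKO library reached the WT range, and the fall of 0.86 (SE 0.18) had an adjusted p of 0.0053. Rps21 stood at 11088, 7124 and 10069 in WT and 6697, 6680 and 4328 in cKO, a fall of 0.68 (SE 0.18), again with no overlap. Rps28 stood at 6122, 3520 and 5563 in WT and 3618, 3637 and 2325 in cKO, a fall of 0.66 (SE 0.20). Here WT replicate 2 lay below 2 of the cKO libraries, so the groups overlapped, and the call was lost in 6 of 18 alternatives, DESeq2 and library totals among them. Rpl27 fell by 0.62 (SE 0.13) and Rpl37 by 0.62 (SE 0.15).

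Members with roles outside the core were among the falls. The 5S RNA partners fell by 0.26 (Rpl5, SE 0.07, adjusted p = 0.02) and 0.56 (Rpl11, SE 0.10, adjusted p = 0.0017). The call of Rpl5 was lost in 7 of 18 alternatives, among them library totals, the replicate block and leaving out WT replicate 1 or 3 or cKO replicate 1 or 2, and that of Rpl11 in 1. Rps6 stood at 36363, 32125 and 35062 normalised reads in WT and 28515, 28530 and 25205 in cKO. Its groups did not overlap, and it fell by 0.33 (SE 0.08, adjusted p = 0.0078). Rpsa, which sits on the small subunit and is also known as the laminin receptor, fell by 0.32 (SE 0.07). Rps27a had a difference of -0.33 with an SE of 0.26 and did not pass (adjusted p = 0.4).

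The 4 members on the X chromosome fell by like amounts: Rpl39 by 0.51 (SE 0.17), Rpl10 by 0.49 (SE 0.07), Rps4x by 0.48 (SE 0.07) and Rpl36a by 0.48 (SE 0.13). Their falls stood a little below the members' median of -0.38, in the groups that also differed in Xist and Ddx3y. The call of Rpl39 was lost in 10 of 18 alternatives, among them DESeq2, TMM scaling, library totals and the replicate block, and that of Rpl36a in 4. Among the paralogs, Rpl7 and Rpl7l1 both fell by 0.33, Rpl22 fell by 0.36 and Rpl22l1 was at -0.17 (adjusted p = 0.49). The call of Rpl22 was lost in 6 of 18 alternatives, library totals among them.

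**Figure D3:**
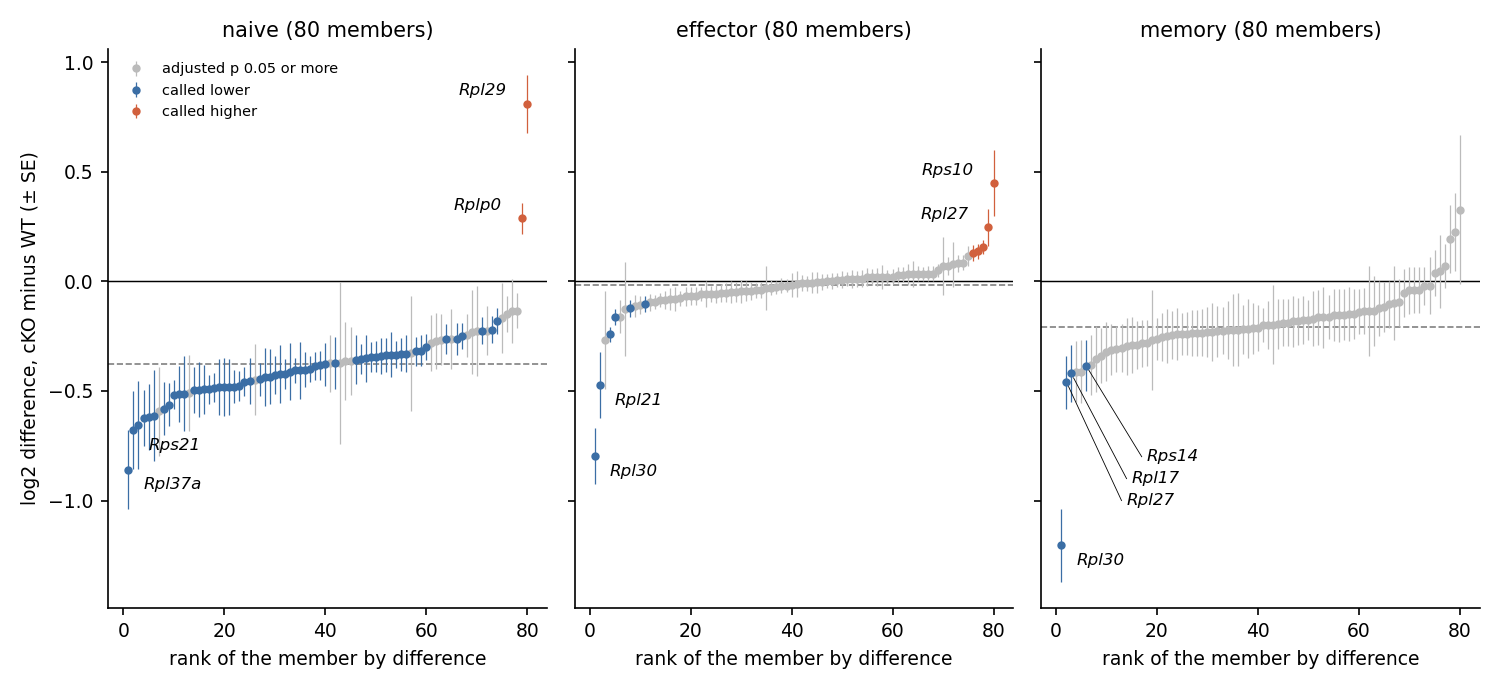
Log2 difference between cKO and WT (± SE) for the 80 members in each subset, ordered within the subset; blue and red points passed an adjusted p of 0.05, grey points did not, and the dashed line is the median. In naive cells all but Rplp0 and Rpl29 lie below 0, in effector cells they lie around 0 with Rpl30 lowest, and in memory cells Rpl30 lies apart at the bottom.

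Other values moved with the naive difference, and their part in it was not tested. Reads on the mitochondrial chromosome fell from 2.12% ± 0.22 to 0.82% ± 0.08 of all reads, and without them the members' share was still lower in cKO. The 4 proliferation markers summed to between 32.4 and 38.2 CPM in WT and between 216 and 238 in cKO libraries, with none at 0. The 5 gamma-delta T cell markers rose from between 9.36 and 10.9 CPM to between 50.5 and 59.2, and the 9 B cell markers went from between 446 and 484 to between 371 and 409 CPM.

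Replicates of naive cells differed from each other by the length of the member. The coding length of the members, from the GENCODE M21 annotation, ran from 75 to 1257 bases with a median of 453. In WT replicate 2 the short members stood low against the other 2 WT libraries, and the difference followed coding length with a Spearman rho of 0.82 over 80 members. In cKO replicate 3 it did so with a rho of 0.80, and the other 4 naive libraries gave values between -0.66 and -0.80. Each library was set against the other 2 of its group, so opposite signs within a group arise in part by construction. In the effector libraries rho lay between -0.36 and 0.34. In memory cells it was -0.55 in cKO replicate 1, 0.58 in cKO replicate 3 and 0.40 in WT replicate 1, and between -0.27 and 0.07 in the other 3 libraries. The members of a library share its depth and preparation, so no p is given for these descriptions.

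The difference between cKO and WT in naive cells also followed coding length, with a Pearson r of 0.39 and a Spearman rho of 0.51 over the members; the rho was 0.16 over 10866 other genes with a coding length. The 26 members under 400 coding bases had a median of -0.46 and the 23 over 600 bases a median of -0.32, with 18 and 19 falls. Short genes outside the members stood lower as well. The 575 other genes under 400 bases had a median of -0.12, with 109 called lower and 45 higher. The 9442 over 600 bases had a median of 0.0027, with 1090 lower and 1416 higher. With both WT replicate 2 and cKO replicate 3 left out, an alternative chosen after seeing the data, 71 members fell and 2 rose and the median stayed at -0.38. The share of all genes called in that reduced fit is not given, so the larger count is not a result about the members.

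**Figure D4:**
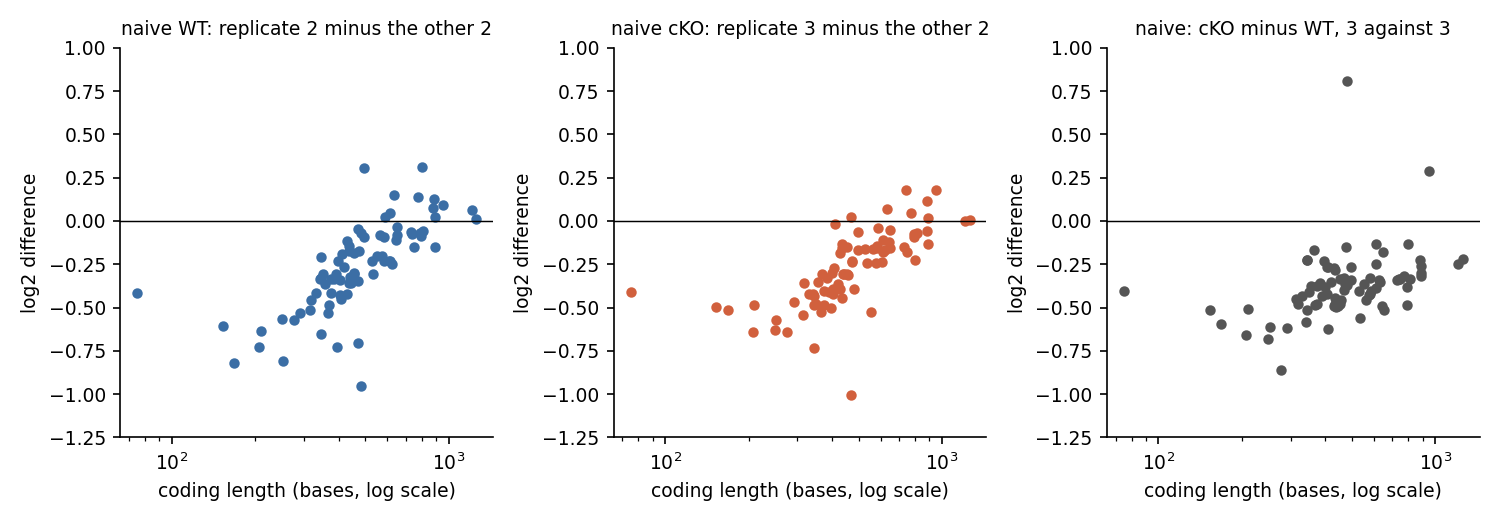
Log2 difference against coding length (bases, log scale) for the 80 members tested: WT replicate 2 and cKO replicate 3 of naive cells against the other 2 libraries of their group, and cKO against WT. Short members lie low in those 2 libraries, and in the third panel the points lie between -0.86 and -0.13 apart from Rplp0 and Rpl29 above 0.

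In effector cells the members as a group stood at nearly the same level in both genotypes, and single genes moved in both directions. Of 80 members 6 fell and 5 rose, with 20.1% of all genes called, 9.37% lower and 10.7% higher, and the median was -0.01. The share of reads was 4.34%, 4.37% and 4.29% in cKO, overlapping the WT libraries at a mean difference of -0.05 percentage points (exact permutation p = 0.2). As a share of TPM the members took 8.36% ± 0.08 in cKO and 8.57% ± 0.05 in WT, without overlap (exact permutation p = 0.1). Without cKO replicate 1, 12 fell and 8 rose. In a fit over all 18 libraries 1 fell and none rose. Other values moved from WT to cKO, and their part was not tested. Proliferation markers went from 2413 ± 70 to 1730 ± 42 CPM and mitochondrial reads from 1.86% ± 0.06 to 2.17% ± 0.05. Mean B cell markers went from 229 to 347 CPM, gamma-delta T cell from 8.94 to 63.1 and NK cell from 132 to 315. Neutrophil markers went from 17.7 to 58.7, erythroid from 13.2 to 91.1 and myeloid from 108 to 128, while CD4 T cell markers stood at 63.9 and 64.4.

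Rpl30, another large subunit protein, fell most. It stood at 2738, 3532 and 2672 normalised reads in WT effector libraries and 1281.5, 1777 and 2168 in cKO. The groups did not overlap, and the fall of 0.80 (SE 0.13, adjusted p = 1.7e-04) was called in all 17 alternative settings. Rpl21 fell by 0.47 (SE 0.15), Rps26 by 0.24 (SE 0.03), Rplp1 by 0.12 (SE 0.04) and Rps20 by 0.10 (SE 0.04). Calls were lost in 6 of 17 alternatives for Rpl21, 7 for Rplp1 and 8 for Rps20, and in 1 for Rps26.

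On the other side, Rps10 rose by 0.45 (SE 0.15) from 88, 86 and 92 to 111, 135 and 120 normalised reads, a small part of the reads on its named pseudogene rows, and the call was lost in 9 of 17 settings. Rpl27 stood at 5732, 5042 and 4814 in WT and at 5032, 6887 and 6691.5 in cKO. Its groups overlapped through cKO replicate 1, and the rise of 0.25 (SE 0.08, adjusted p = 0.047) was lost in 7 of 17 settings. Rpl3 rose by 0.16 (SE 0.03), Rpl9 by 0.14 (SE 0.03) and Rps6 by 0.13 (SE 0.04, adjusted p = 0.013). For Rps6 the WT libraries held 16471, 15504 and 16222 normalised reads and the cKO libraries 16932, 17539 and 18230, with no overlap. Rplp0, at -0.09 (adjusted p = 0.055), and Rpl29, at -0.05 (adjusted p = 0.44), did not pass.

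In memory cells 4 members fell and none rose, with 19.1% of all genes called, 7% lower and 12.1% higher, although 74 of 80 had a difference below 0 and the median was -0.21. Without adjustment 27 members had a p under 0.05. The number called turned on 1 library. The members took 9.05%, 7.28% and 7.04% of reads in the cKO libraries, so cKO replicate 1 lay inside the WT range and the other 2 below it (exact permutation p = 0.5). Without that library 60 members fell and none rose, DESeq2 called 14 falls on all libraries, and the fit over all 18 libraries called 11. The shares of 7% and 12.1% belong to the main fit. The shares over all genes in these alternatives are not given, so the counts show only how the calls moved. The authors' deposited table called 12 members higher in WT.

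Rpl30 was again the lowest. It stood at 8136, 7243 and 6775 normalised reads in WT memory libraries and at 4536, 2695 and 2664 in cKO. The groups lay far apart even with cKO replicate 1, and the fall of 1.20 (SE 0.17, adjusted p = 3.4e-04) was called in all 17 alternative settings, between -1.46 and -1.01. In naive cells Rpl30 stood at 8583, 5387 and 8381 in WT and 6910, 7873 and 4435 in cKO, overlapping, at -0.23 (SE 0.20, adjusted p = 0.46). Its named pseudogene rows held 6.73% of its reads in memory cells. Rpl27 fell by 0.46 (SE 0.12), Rpl17 by 0.42 (SE 0.13) and Rps14 by 0.38 (SE 0.12). Those calls were lost in 3 of 17 alternatives for Rpl27 and in 8 each for Rpl17 and Rps14. Stalk and 5S members did not pass: Rplp0 at -0.16, Rplp1 at -0.23, Rplp2 at -0.29, Rpl5 at -0.23 and Rpl11 at -0.34, with adjusted p between 0.08 and 0.41.

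Markers of other cells moved in memory cells as well, and their part in these values was not tested. The 7 neutrophil markers summed to between 18.5 and 22.0 CPM in WT and between 217 and 294 in cKO libraries, the 9 myeloid markers to between 24.0 and 27.6 and between 179 and 237, and the 9 B cell markers to between 799 and 869 and between 1467 and 1747. The 5 gamma-delta T cell markers went from between 15.9 and 16.5 to between 117 and 153 CPM, and the 3 NK cell markers from between 13.6 and 15.8 to between 108 and 121. None of these markers was at 0 in all libraries of either group. The 8 CD8 T cell markers went from a mean of 5206 to 4366 CPM. Mean proliferation markers went from 249 to 355 CPM, CD4 T cell markers from 16.7 to 34.5 and erythroid markers from 24.6 to 55.1. Mitochondrial reads went from 2.41% ± 0.07 to 1.55% ± 0.27 of all reads. The part of these values was not tested either.

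**Figure D5:**
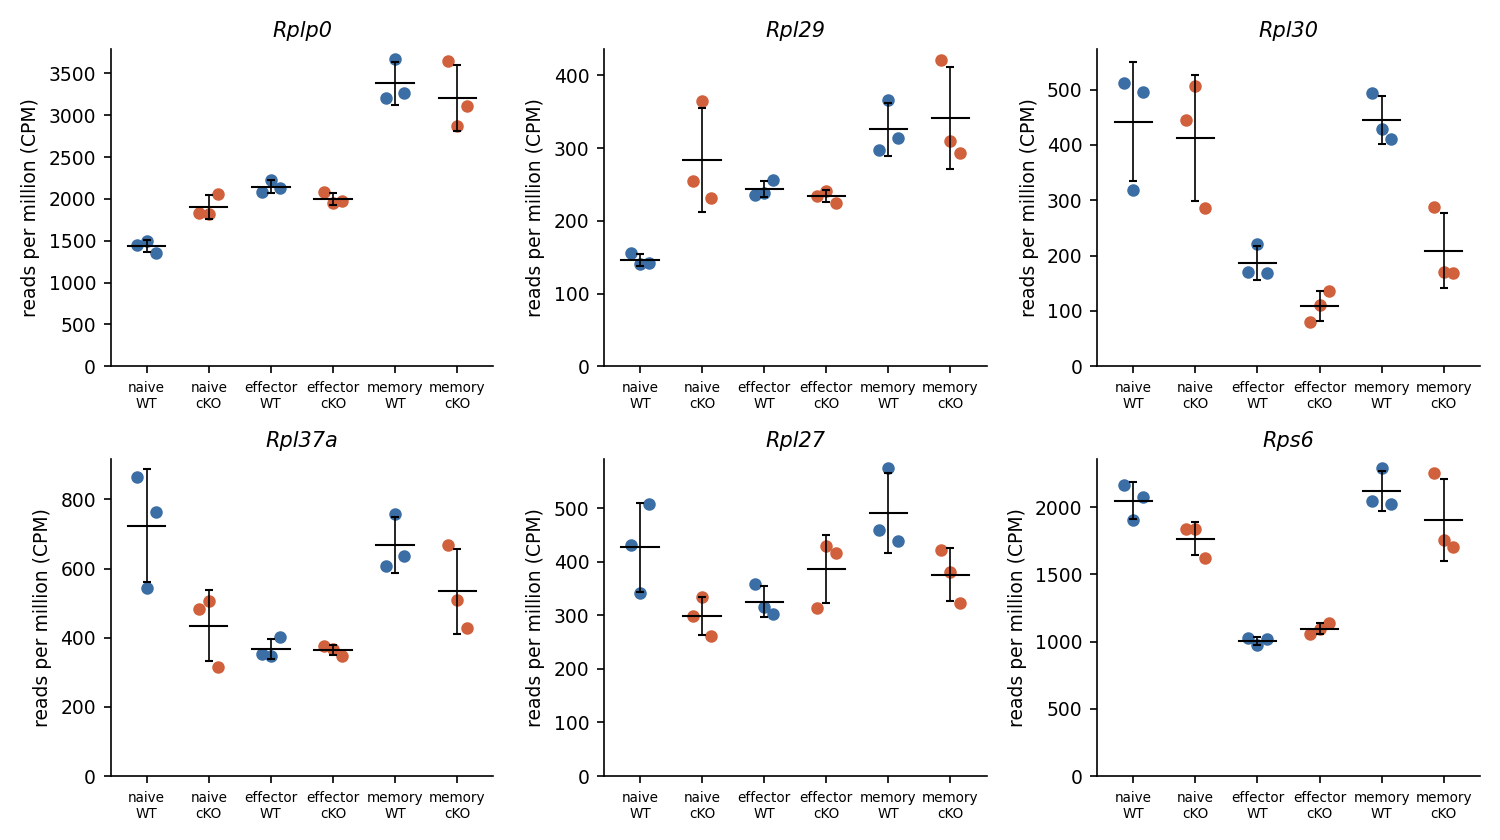
CPM of Rplp0, Rpl29, Rpl30, Rpl37a, Rpl27 and Rps6 in every library; points are libraries, lines are means and bars SD over 3 libraries, blue WT and red cKO. Rplp0 and Rpl29 are lowest in WT naive cells, and Rpl30 is lower in cKO in effector and memory cells.

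The genotype difference itself changed between subsets for 34 members from naive to effector cells. In a model over all 18 libraries 32 members had a higher difference in effector than in naive cells and 2 a lower one, with 18.5% of all genes called, 9.69% lower and 8.81% higher; the median over members was 0.36. The 32 fell to 19 with edgeR or TMM scaling and to 11 with library totals. Rpl27 changed most, by 0.87 (SE 0.20, adjusted p = 0.0029), from -0.62 in naive to 0.25 in effector cells. Rpl37a followed at 0.85 (SE 0.23), Rps10 at 0.71 (SE 0.20) and Rpl11 at 0.65 (SE 0.15). Rps4x, Rpl10 and Rps6 changed by 0.48, 0.51 and 0.46. Rpl29 and Rplp0 changed the other way, by -0.86 (SE 0.18) and -0.38 (SE 0.12). Xist changed by 1.69 in the same limma term (adjusted p = 4.3e-07). Genotype and the sex-linked difference of the naive groups therefore cannot be told apart in these terms.

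Between naive and memory cells 5 members differed in their genotype difference, with 16.9% of all genes called, 9% lower and 7.89% higher. The same limit holds here, with Xist changed by 1.69 in this limma term (adjusted p = 7.8e-07). Rpl30 (-0.98, SE 0.31), Rpl29 (-0.83, SE 0.18) and Rplp0 (-0.44, SE 0.12) had a lower difference in memory cells, and Rpl7l1 (0.31, SE 0.10) was among the 2 with a higher one. The call of Rpl7l1 was lost in 14 of 23 alternatives, edgeR, TMM scaling and library totals among them, that of Rpl30 in 7, DESeq2 among them, and that of Rplp0 in 1, the replicate block. Between effector and memory cells Rpl27 alone was called, at -0.71 (SE 0.20, adjusted p = 0.025), with 8.71% of all genes called, 3.96% lower and 4.75% higher. This call of Rpl27 was lost in at least 1 alternative other than the members' own scaling. Without memory cKO replicate 1, 20 members were called lower. The difference of Rpl30 between effector and memory cells, -0.41 (SE 0.31), did not pass.

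Other genes of translation were read from fixed lists, beside 11.9% of all genes called lower and 12.9% called higher in naive cells. Counts near those shares, such as the falls of the mitochondrial ribosome, are not a result about the list. No list was tested as a set, and most lists are too short for their counts to be set apart from those shares. In naive cells 2 of 3 further ribosome members were lower in cKO: Fau, which encodes the small subunit protein eS30, fell by 0.53 (adjusted p = 0.0014) and Rack1, a scaffold on the small subunit, by 0.22 (adjusted p = 0.024). Of 6 elongation factors 4 fell, led by Eef1d at -0.56 (adjusted p = 4.8e-05) and Eef1g at -0.30 (adjusted p = 0.0027). Among 19 other TOP mRNAs, which share genes with those lists, 9 fell and 1 rose, with a median of -0.22; Eif3h fell by 0.36 and the rise was Vim, at 0.32. Of 36 initiation factors 7 fell and 3 rose, with Eif2s2 up by 0.72 and Eif3k down by 0.53, and their median was -0.07. Among 18 genes of mTORC1 and TOP mRNA control 1 fell and 3 rose. Sesn2, an inhibitor of mTORC1 under amino acid shortage, rose by 1.96 (adjusted p = 5e-06), Eif4ebp1, a repressor of cap-dependent initiation, by 1.44 (adjusted p = 4.1e-05) and Larp1 by 0.22 (adjusted p = 0.022). Ddit4, another inhibitor of mTORC1, fell by 0.56.

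The mitochondrial ribosome, with 77 genes tested, had 9 falls and no rise in naive cells at a median of -0.09, its falls close to the share of 11.9% over all genes. The 5 dedicated chaperones of ribosomal proteins had no call in either direction, and of 5 termination and recycling genes Etf1 rose by 0.22. In effector cells, where 9.37% of all genes were called lower and 10.7% higher, none of the 6 elongation factors was called. The mitochondrial ribosome had 7 falls and no rise in effector cells at a median of -0.09, its falls near the share over all genes. Of 19 other TOP mRNAs 2 fell, Vim by 0.17 and Nap1l1 by 0.18, a count near the share over all genes. Ddit4 (0.53), Sesn2 (0.42), Larp1 (0.24) and Rheb (0.22) rose. In memory cells, where 7% of all genes were called lower and 12.1% higher, again no elongation factor was called, nor any gene of the mitochondrial ribosome. Vim rose by 0.36, and Sesn2 (1.35), Eif4ebp1 (1.17), Ddit4 (0.40), Larp1 (0.31) and Rragc (0.23) rose. Larp1, whose protein binds TOP mRNAs, was higher in cKO in all 3 subsets. Of the 4 paralogs tested that the name rule leaves out, Rps27rt fell by 1.45 (adjusted p = 9.6e-05) and Rps4l fell by 2.29 (adjusted p = 0.046) in naive cells, and none was called in effector or memory cells.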

How the data were processed

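Poly-A RNA of 18 libraries was measured, 3 in each of 6 groups, which the labels give. The tools named, per the submitters' processing notes, include HISAT2 2.2.1 and fastp, and also featureCounts 2.0.6 as well as DESeq2 1.42.0, on build GRCm39; their order, settings, annotation and strand are not given in the sources used here. The authors deposited 1 table per subset, in which each gene has 1 signal value for every library, a read count divided by 1 size factor, and a log2 fold change of WT over cKO with its p-value and adjusted p-value. Dividing by the worth of 1 read gave whole reads for 100% of the deposited signal values, within 1e-05 reads; no column of per-sample values was left unused. Total reads per library and these 3 replicates set the precision.

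Genotype differences, and their differences between subsets, were fitted in R 4.3.3 by limma 3.58.1 after adding a pseudocount of 1 to the normalised reads and taking log2, the prior variance following the mean level. Genes entered when 3 or more libraries reached 10 normalised reads; fold changes are on that scale, which understates changes of low genes. WT subsets were compared in the same way on recovered reads scaled by TMM. Calls are at a Benjamini-Hochberg adjusted p under 0.05 over all genes tested, also where several values share a sentence. The count tests of edgeR 4.0.16 and DESeq2 1.42.0 on recovered reads were alternatives. For shares of reads the test was an exact permutation test, two-sided. CPM and TPM were computed from recovered reads and deposited gene lengths. The limma fit was tested on simulated counts scaled to library totals. This covered the 3 genotype comparisons, the effector minus naive term and WT effector against WT naive cells. The other contrasts, scalings and tests were not run on simulated data.

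Named genes were the largest falls and rises among called members with a mean of at least 50 normalised reads (5 per direction for genotype, 3 for the others), members of the stalk, the 5S particle, the X chromosome and the paralog pairs, Rps6, Rpsa and Rps27a, and the 2 called genes of each translation list with the smallest adjusted p; further called genes of those lists were named after their values were seen. Values of some members that the rule names are not reported here. The members and lists were chosen with earlier results of these data known. Alternatives covered scaling, pseudocount, filter, tool, a replicate block and leaving out each library.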

Additional observations from a re-analysis of the deposited data

Results flagged for a closer look

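Each member below had a genotype difference (cKO minus WT) that differed between 2 subsets by the limma interaction term, with the adjusted p over all genes; values are log2. For effector minus naive cells the term was -0.8612 for Rpl29 (adjusted p = 0.0017) and -0.382 for Rplp0 (0.028). It was 0.8684 for Rpl27 (0.0029), 0.8528 for Rpl37a (0.012), 0.7104 for Rps10 (0.017), 0.6471 for Rpl11 (0.0037) and 0.5137 for Rpl10 (0.0032). It was 0.4767 for Rps4x (0.0032), 0.4722 for Rplp2 (0.045), 0.4614 for Rps6 (0.013) and 0.3552 for Rpl7l1 (0.017). For memory minus naive cells the term was -0.9771 for Rpl30 (0.032), -0.8298 for Rpl29 (0.003), -0.4423 for Rplp0 (0.013) and 0.3126 for Rpl7l1 (0.039). For memory minus effector cells it was -0.7055 for Rpl27 (0.025), a call that did not hold under every alternative. Comparisons of 2 subsets with the third share libraries, so these terms are not independent of each other. In the terms against naive cells, genotype cannot be told apart from the difference of the naive groups in Xist and Ddx3y.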

How the results depend on the processing

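Scaling libraries to the members' own summed reads removes by construction what the members share, and shifted the median of all genes by 0.359 in naive cells. It left 1 fall and 4 rises in naive cells (median -0.0165), 1 fall in memory cells (-0.0097), 2 higher terms for effector minus naive (0.0148), 0 for memory minus naive and 0 lower for memory minus effector (0.017). It left 16 falls and 17 rises for WT effector against naive (-0.0414) and 18 falls and 13 rises for WT memory against effector (-0.0041). Under it called values changed sign, among the genes named by rule in naive cells Rpsa to 0.0432, Rpl5 to 0.0972, Rps6 to 0.0273, Rpl22 to 0.003, Rpl7 to 0.0262 and Rpl7l1 to 0.0252, and further members crossed 0 with them. For WT effector against naive, Rpsa went to 0.2116, Rpl11 to 0.1769, Rpl10 to 0.0433, Rpl39 to 0.1419, Rpl22l1 to 0.284, Rpl7 to 0.2769 and Rpl7l1 to 0.6685. For WT memory against effector, Rplp0 went to -0.2889, Rpsa to -0.2246, Rpl11 to -0.1056, Rps27a to -0.0964, Rpl10 to -0.1822, Rpl39 to -0.225, Rpl22l1 to -0.0193 and Rpl7 to -0.3502. Library totals gave 31 falls in naive and 2 in memory cells, 11 higher terms for effector minus naive (median 0.239) and 0 for memory minus naive, and moved the median of all genes by 0.118 in naive cells and -0.124 for effector minus naive. TMM scaling and edgeR each gave 19 higher terms for effector minus naive and 0 for memory minus naive, and no filter gave 1 for the latter. DESeq2 gave 3 rises in effector and 14 falls in memory cells, 5 higher terms for memory minus naive and 2 lower for memory minus effector. A fit over all 18 libraries gave 1 fall and 0 rises in effector and 11 falls in memory cells. For WT memory against effector, edgeR gave 1 fall, and DESeq2, DESeq2 size factors and the 6 libraries compared alone gave 2 each. For these changes other than the members' own scaling, the cause was not tested.

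Same-numbered WT and cKO libraries had correlations of deviations between -0.1434 and 0.06653, and different-numbered ones between -0.1633 and 0.2296. With 3 libraries a group these values cannot show whether libraries were paired or shared a batch. With a replicate block 51 members fell and 1 rose in naive cells and 2 fell in memory cells. The block gave 1 lower and 14 higher terms for effector minus naive, 0 higher for memory minus naive, 0 lower for memory minus effector, and 5 rises for WT memory against naive.

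Leaving out 1 library at a time gave 32 to 67 falls and 1 to 2 rises in naive cells (median -0.4708 to -0.2964), 3 to 12 falls and 2 to 8 rises in effector cells (-0.0312 to -0.0053) and 1 to 60 falls in memory cells (-0.3244 to -0.1179). For effector minus naive it gave 1 to 2 lower and 17 to 46 higher terms (0.3011 to 0.4393), for memory minus naive 2 to 3 lower and 0 to 9 higher (0.0771 to 0.2806), and for memory minus effector 0 to 20 lower (-0.2785 to -0.0928). It gave 68 to 73 falls and 2 to 3 rises for WT effector against naive (-0.9949 to -0.86), 2 to 4 falls and 2 to 4 rises for WT memory against naive (-0.0878 to 0.0636), and 0 to 1 falls and 70 to 75 rises for WT memory against effector (0.8115 to 0.9516). The share of reads, cKO minus WT, ranged from -1.6592 to -0.9873 percentage points in naive, -0.0721 to -0.0318 in effector and -1.2852 to -0.2357 in memory cells. Of the calls, 2 of 60 in naive cells held under every alternative, 1 of 11 in effector and 1 of 4 in memory cells. Leaving the members' own scaling aside, 28 of the 60 naive calls held. Of the differences between subsets, 3 of 34 held under every alternative for effector minus naive. It was 1 of 5 for memory minus naive and 0 of 1 for memory minus effector. Without naive WT replicate 2 and cKO replicate 3, chosen after seeing the data, 71 members fell. With 3 libraries a group, the permutation test of a share cannot go below 0.1. Shares of all genes called were set beside the main fits only, so the counts under alternatives cannot be judged against them.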

Other observations

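The following members, chosen after their values were seen, varied widely between replicates. Rps27a stood at 4463 normalised reads in memory WT replicate 1 and at 14199 and 12436 in the other 2, and at 12409, 9656 and 5461 in the naive cKO libraries. In effector libraries it ranged from 4492 to 5455. Rpl21 stood at 2694, 1055 and 1550 in naive WT and 1644, 1872 and 660 in naive cKO libraries. Rpl17 stood at 4156, 6339 and 8229.5 in effector WT and 3038, 7071 and 5789 in effector cKO libraries.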
